A study of Strongylocentrotus intermedius with 6 samples.

Results

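The clock output genes of the sea urchin Strongylocentrotus intermedius, as its gene models name them, were followed in coelomocytes, the cells of its body fluid that serve immunity. They were taken by identifier from the authors' annotation, 7 of 30559 gene models. These were 3 models named Nr1d2 (ZJQ000820, ZJQ018676 and ZJQ019208), 1 named RORA (ZJQ003336), 2 named HLF (ZJQ000791 and ZJQ017941) and 1 named TEF (ZJQ001187). RNA-seq libraries came from animals under LD, by convention alternating light and dark, sampled at ZT0 (zeitgeber time, conventionally hours after lights-on) or at ZT12, with 3 libraries at each time. All 6 libraries share the LD regime, and the labels give neither the hours of light nor the age, sex or pooling of the animals. The comparison asks how the transcripts differed between these times of day.

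In mammals, the nuclear receptors REV-ERB (encoded by Nr1d1 and Nr1d2) and ROR compete for a shared DNA element. REV-ERB, a heme-binding receptor, represses genes that hold it, Bmal1 among them, and ROR activates them, which forms a stabilising loop beside the core clock. HLF and TEF are bZIP transcription factors of the PAR class (rich in proline and acidic residues) that mammalian clocks drive as outputs and that bind D-box elements. These roles come from mammals, and the urchin names are those of the authors' annotation. No model carried the names Nr1d1, RORB or DBP (the remaining mammalian PAR factor).

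Total counts ran from 20229918 to 24368884 per library, and counts were found for 23487 to 24677 gene models. Transcripts of coelomocyte effector genes were present in every library. The 24 echinoidin (lectin) models summed to 3280 to 10100 CPM (counts scaled to a common library total), the 37 scavenger receptor models to 1840 to 2170 CPM and the 3 complement C3 models to 763 to 1850 CPM, while no model carried the name amassin. Of 83 coelomocyte marker models 5 had no count in any library. The list summed to 10800 to 13900 CPM at ZT12 and 13700 to 18900 CPM at ZT0. Of its 47 tested models edgeR called 0, and 9 had an unadjusted p under 0.05, beside 7.31% of all genes tested. The log2 fold change (ZT12 minus ZT0) was above 0 for 28 and below 0 for 19. In 8 every ZT12 library lay below every ZT0 library and in 1 above, beside 6.33 and 5.84% of all genes tested. Markers of skeleton-forming cells differed between the times: 6 of the 11 tested models passed edgeR's test, all lower at ZT12, beside 0.114% of all genes tested. Of the 11, 8 had every ZT12 library below every ZT0 library and 1 above, and 3 had a log2 fold change above 0. The 18 models together summed to 126 ± 50.9 CPM at ZT12, against 589 ± 225 CPM at ZT0 (SD, n = 3), with no overlap. Of 35 tested gut marker models edgeR called 0, but 14 had an unadjusted p under 0.05, beside 7.31% of all genes tested. Of the 35, 29 had a log2 fold change above 0 (50.1% of all genes tested), with a median of 1.63 over the list. In 5 of the 35 every ZT12 library lay above every ZT0 library and in 0 below (5.84 and 6.33% of all genes tested). The 69 gut models together summed to 3700 to 4020 CPM at ZT12 and 3620 to 4810 CPM at ZT0. The part of skeleton-forming and gut cells, and of differences among the coelomocyte markers, in the results below was not tested. In such bulk samples fewer cells of a type and less RNA per cell cannot be told apart. The labels do not say that the libraries of a time came from separate animals, so a p-value reflects the spread among these samples alone, and that spread may be technical.

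All 7 genes were expressed in all 6 libraries and passed the filter on low counts. None passed the test between ZT12 and ZT0 (edgeR's quasi-likelihood test, p adjusted by Benjamini-Hochberg over 18456 genes). The background was 0.13% of genes called, 0.0163% higher and 0.114% lower at ZT12. Of the members 1, Nr1d2 ZJQ018676, had an unadjusted p under 0.05, against 7.31% of all genes. DESeq2 (which called 1.33% of genes, 0.67% higher and 0.66% lower at ZT12), limma-voom and limma-trend on FPKM (fragment counts scaled by gene length and library total) also called 0 of the 7. Log2 fold changes (ZT12 minus ZT0) were above 0 for 3 members and below 0 for 4, with a median of -0.15, beside a median of 0 and 50.1% above 0 over all genes tested. The libraries of the times did not overlap for 2 members, Nr1d2 ZJQ018676 (higher at ZT12) and HLF ZJQ000791 (lower at ZT12), and did not overlap for 12.2% of all genes tested (5.84% with ZT12 above, 6.33% with ZT12 below).

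The Rev-erb genes, the repressor arm, gave different values from model to model. Nr1d2 ZJQ018676, the only one of the 3 to which the authors' annotation gives the circadian rhythm pathway term, was at 14.9, 13.3 and 14 CPM in ZT12 libraries 1, 2 and 3 and at 4.44, 8.42 and 10.4 CPM in ZT0 libraries 1, 2 and 3. Every ZT12 library lay above every ZT0 library, with ZT0 library 1 lowest. Its mean was 14.1 ± 0.819 CPM at ZT12, against 7.77 ± 3.05 CPM at ZT0 (SD, n = 3). Its fitted log2 fold change was 0.86 (SE 0.35), a 1.81-fold higher level at ZT12 with a 95% interval of 1.03 to 3.18. For this edgeR gave an unadjusted p of 0.0412 and an adjusted p of 0.654. Without ZT0 library 1 the log2 fold change was 0.58. The ZT12 libraries varied about as much as counting alone gives (coefficient of variation 5.82%, against 5.62% from counting). At ZT0 they varied by 39.3%, against 7.78% from counting.

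Nr1d2 ZJQ000820, which carries a longevity pathway term of the worm, was at 35.3, 35.2 and 51.5 CPM in ZT12 libraries 1, 2 and 3. In ZT0 libraries 1, 2 and 3 it was at 30.6, 36.5 and 25.4 CPM. The times overlapped, since ZT0 library 2 lay above ZT12 libraries 1 and 2, and ZT12 library 3 stood highest. The log2 fold change was 0.40 (SE 0.25; 95% interval -0.18 to 0.97; edgeR adjusted p = 0.785), and it was 0.19 without ZT12 library 3.

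Nr1d2 ZJQ019208, with no pathway term, was at 43.0, 45.3 and 44.6 CPM in the ZT12 libraries. It was at 52.6, 41.3 and 68.9 CPM in the ZT0 libraries. The ZT12 values lay close together, with a coefficient of variation of 2.7%, and within the range of the ZT0 values, where library 3 was highest. The log2 fold change was -0.29 (SE 0.23; 95% interval -0.82 to 0.24; edgeR adjusted p = 0.83), and it was -0.08 without ZT0 library 3.

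**Figure D1:**
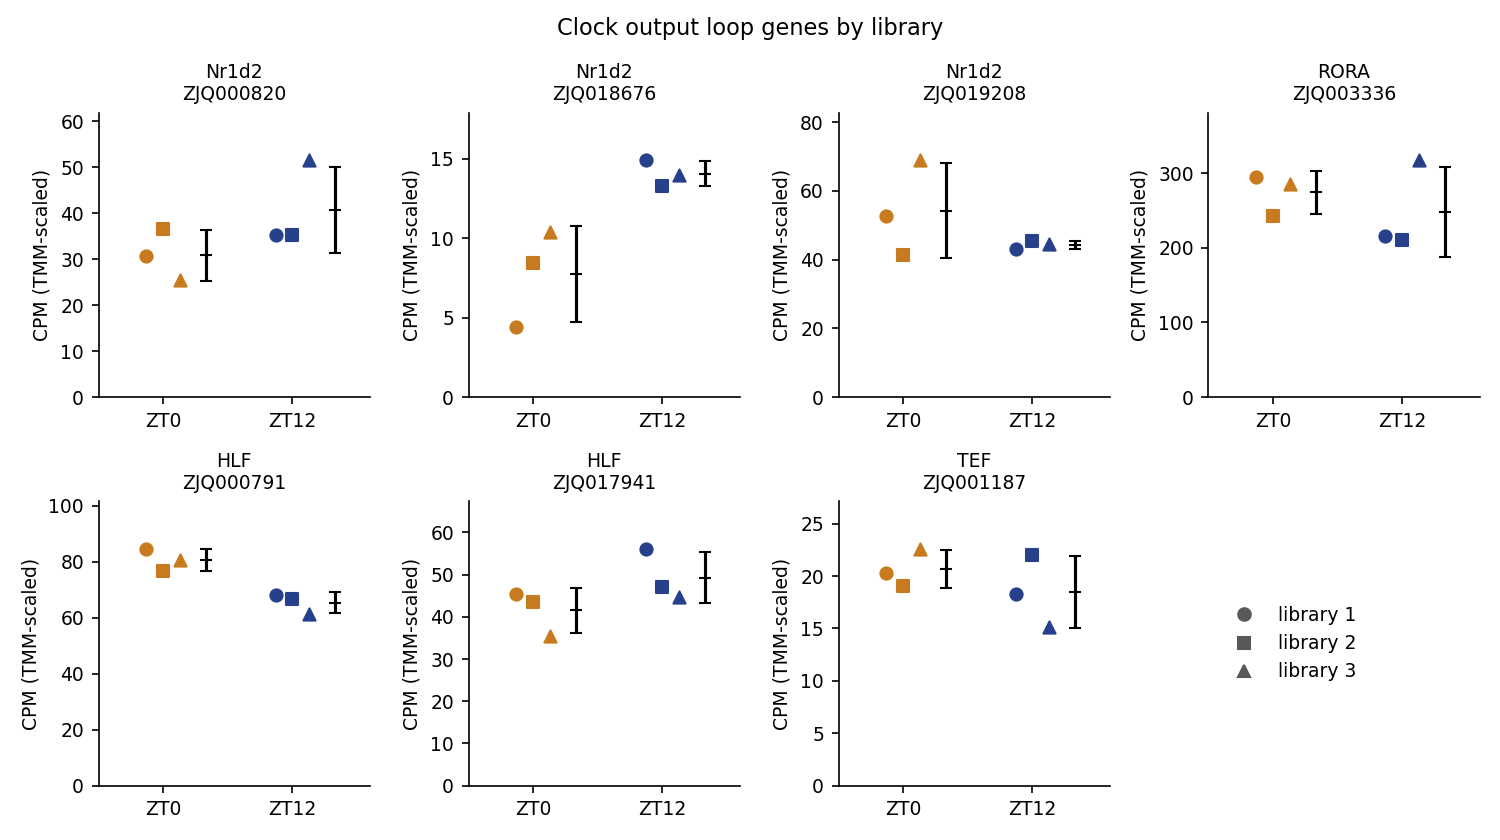
Levels of the 7 genes in CPM (TMM-scaled) in each library at ZT0 and ZT12. Symbols mark library numbers, which the labels do not say pair libraries across times, and black bars give mean ± SD of 3 libraries. Nr1d2 ZJQ018676 and HLF ZJQ000791 are the members whose times do not overlap.

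Per length, the 3 Nr1d2 models summed to 21.2, 21.8 and 29.1 FPKM in the ZT12 libraries and to 16.4, 20.6 and 17.6 FPKM in the ZT0 libraries. The means of this sum were 24.0 ± 4.39 FPKM at ZT12 and 18.2 ± 2.17 FPKM at ZT0 (SD, n = 3). Nr1d2 ZJQ000820 made up most of the sum in 5 of the libraries (61.3, 61.6 and 69.9% at ZT12, 62.7 and 67.6% in ZT0 libraries 1 and 2) and 48.6% in ZT0 library 3. Its length was 2727 bp, against 9389 bp for Nr1d2 ZJQ019208, whose CPM were higher in every library but ZT12 library 3. The FPKM sum is thus weighted towards the shorter model. Nr1d2 ZJQ018676 contributed 17.1, 15.3 and 12.5% at ZT12 and 5.98, 10.3 and 13.1% at ZT0, ranges that overlap. Its FPKM over that of the other Nr1d2 models was 1.64-fold higher at ZT12 (log2 difference 0.71, two-sided exact permutation p = 0.2, adjusted p = 0.25 over 5 ratios), with a log2 difference of 0.39 without ZT0 library 1.

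The single ROR gene, RORA, encodes the receptor that in mammals activates through the element REV-ERB represses. It was at 216, 210 and 317 CPM in ZT12 libraries 1, 2 and 3. In the ZT0 libraries it was at 295, 242 and 285 CPM. ZT12 library 3 was the highest of all 6 and the other ZT12 libraries were the lowest, so the times overlapped. The log2 fold change was -0.15 (SE 0.21; edgeR adjusted p = 0.922), and the interval of -0.64 to 0.35 spans a level at ZT12 of 0.64 to 1.28 times that at ZT0. Without ZT12 library 3 the value was -0.36, and without ZT12 library 1 or 2 it was -0.04. RORA's counting error was 1.34% at ZT12, against a coefficient of variation of 24.3%.

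The balance of the arms was read as the summed Nr1d2 FPKM over RORA FPKM within a library. The E75 and Hr3 models, relatives given further below, were left out, and a ratio that includes them was not tested. The ratio without them was 1.01, 1.03 and 0.883 at ZT12 and 0.631, 0.849 and 0.698 at ZT0. In FPKM all ZT12 libraries lay above all ZT0 libraries, the closest being ZT12 library 3 and ZT0 library 2. The FPKM ratio was 1.35-fold higher at ZT12, a log2 difference of 0.44. Its two-sided exact permutation p was 0.1, the smallest that 3 against 3 libraries allow, and its adjusted p was 0.25 over 5 ratios. Taken from CPM the log2 difference was 0.26, and the times overlapped, with ZT12 library 3 below ZT0 libraries 2 and 3.

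The PAR bZIP genes, the output factors, held the member with the highest level per length and the member with the smallest spread. HLF ZJQ000791 was at 68.2, 66.8 and 61.3 CPM in ZT12 libraries 1, 2 and 3. It was at 84.6, 76.6 and 80.5 CPM in the ZT0 libraries. Every ZT12 library lay below every ZT0 library, and the means were 65.4 ± 3.64 CPM and 80.6 ± 3.99 CPM (SD, n = 3). The log2 fold change was -0.30 (SE 0.17), a 1.23-fold lower level at ZT12, with an interval of -0.69 to 0.09 and an edgeR adjusted p of 0.742.

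HLF ZJQ017941, the only PAR bZIP member with a pathway term, that of the fly circadian rhythm, was at 56.1, 47.1 and 44.7 CPM at ZT12. It was at 45.5, 43.6 and 35.5 CPM at ZT0. In CPM on TMM-scaled library sizes ZT0 library 1 lay above ZT12 library 3, so the times overlapped, while in the deposited FPKM, which use plain totals, they did not (56.7, 49.4 and 48.5 FPKM against 42.0, 45.7 and 32.9 FPKM). The log2 fold change was 0.25 (SE 0.20; interval -0.22 to 0.71; edgeR adjusted p = 0.84).

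The HLF models thus had fitted values of opposite sign, and neither passed the test. Within a library, HLF ZJQ000791 FPKM over HLF ZJQ017941 FPKM was 0.341, 0.398 and 0.385 at ZT12 and 0.521, 0.493 and 0.635 at ZT0. Every ZT12 library lay below every ZT0 library. The ratio was 1.46-fold lower at ZT12, a log2 difference of -0.55 (two-sided exact permutation p = 0.1, the smallest possible; adjusted p = 0.25).

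TEF, described by the authors' annotation as transcription factor VBP (the chicken name of this factor), was at 18.3, 22.0 and 15.1 CPM at ZT12. It was at 20.3, 19.1 and 22.6 CPM at ZT0. The times overlapped, with ZT12 library 3 lowest and ZT0 library 3 highest. The log2 fold change was -0.16 (SE 0.24; interval -0.72 to 0.40; edgeR adjusted p = 0.922), and it was -0.04 without ZT12 library 3. Summed HLF and TEF FPKM over summed Nr1d2 FPKM was 1.16-fold lower at ZT12, with overlapping times (log2 difference -0.21, two-sided exact permutation p = 0.5, adjusted p = 0.5), and -0.02 without ZT12 library 3.

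**Figure D2:**
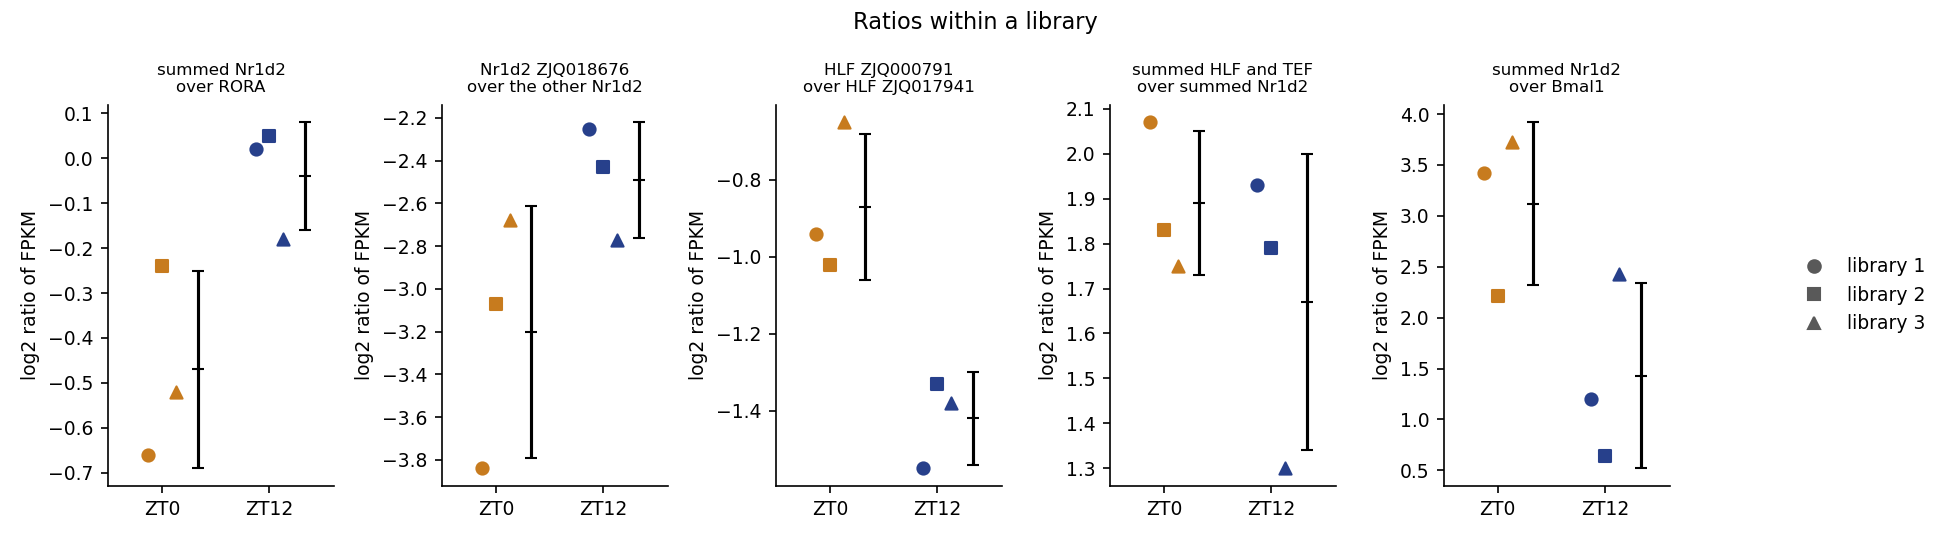
Log2 ratios of FPKM (0.1 added to each value) within each library at ZT0 and ZT12, for 5 ratios. Black bars give mean ± SD of 3 libraries. Summed Nr1d2 over RORA lies higher at ZT12 and HLF ZJQ000791 over HLF ZJQ017941 lies lower at ZT12 in all libraries, with an adjusted p of 0.25 for each (exact permutation test). Taken from CPM, summed Nr1d2 over RORA overlaps between the times.

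Levels between genes were compared per length, as FPKM averaged over the 6 libraries. The lengths that relate counts to FPKM ran from 993 bp for HLF ZJQ017941 to 10349 bp for RORA, with 3547 bp for HLF ZJQ000791. In CPM HLF ZJQ017941 lay below RORA and HLF ZJQ000791 in every library, so its FPKM order against them rests on its shorter length. Whether that model is complete was not checked. HLF ZJQ017941 was highest at 45.9 FPKM, followed by RORA at 25.1, HLF ZJQ000791 at 20.4 and Nr1d2 ZJQ000820 at 13.3 FPKM. TEF at 5.53, Nr1d2 ZJQ019208 at 5.2 and Nr1d2 ZJQ018676 at 2.67 FPKM followed. Neighbours kept this order in all 6 libraries except for HLF ZJQ000791 over Nr1d2 ZJQ000820 (5 of 6) and TEF over Nr1d2 ZJQ019208 (4 of 6). The ratio within a library ran from 0.916 to 2.43 for the first of these pairs and from 0.876 to 1.3 for the second. The difference within these pairs was not tested. RORA was above HLF ZJQ000791 in each library, by 1.08 to 1.77 times. Among all genes tested, the 7 spanned the 40.2nd to the 94.3rd percentile of mean FPKM, whose median was 3.78 FPKM.

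Within their families the members stood at different heights. Among 29 tested nuclear receptor genes RORA was the third in mean FPKM, after Nr0b1 (94.1 FPKM) and Ppara (25.3 FPKM), with a rank from 2 to 6 in single libraries. Nr1d2 ZJQ000820 ranked 10, ZJQ019208 ranked 18 and ZJQ018676 ranked 21. Among 19 tested bZIP genes HLF ZJQ017941 ranked 5, HLF ZJQ000791 ranked 10 and TEF ranked 18, below Xbp1 (414 FPKM), a factor of the unfolded protein response.

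**Figure D3:**
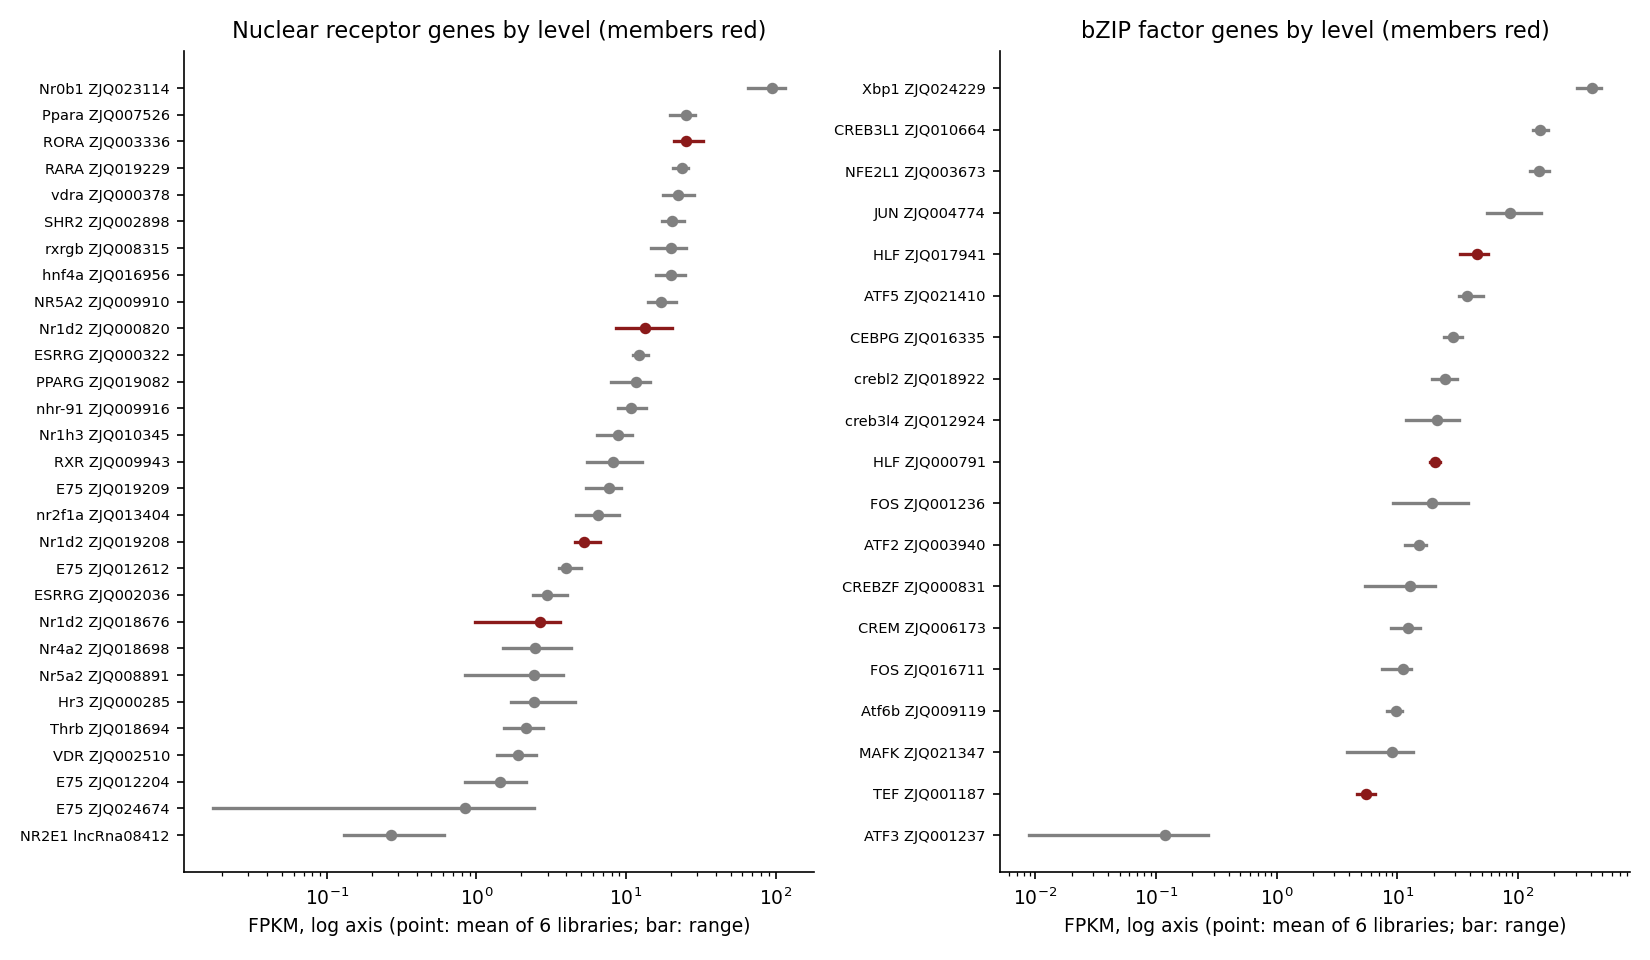
FPKM of the tested nuclear receptor genes (left) and bZIP genes (right), log axis, with points for the mean of 6 libraries, bars for the range and members in red. RORA at 25.1 FPKM stands near the top of its family, and TEF at 5.53 FPKM near the bottom of its own.

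The spread between libraries of the same time also differed between members. HLF ZJQ000791 had an SD of 0.08 log2 units within a time, against a median of 0.44 over all genes tested. Only 0.515% of the genes tested had a smaller SD, as did 1.7% of the 1000 genes nearest to it in mean level. Its coefficients of variation, 5.57% at ZT12 and 4.95% at ZT0, compare with 2.61 and 2.43% from counting alone. HLF ZJQ017941 and TEF had SDs of 0.18 and 0.20 log2 units. The nuclear receptor members had larger ones, 0.26 for RORA and Nr1d2 ZJQ019208, 0.29 for Nr1d2 ZJQ000820 and 0.42 for Nr1d2 ZJQ018676. These shares describe 6 libraries and carry no test.

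**Figure D4:**
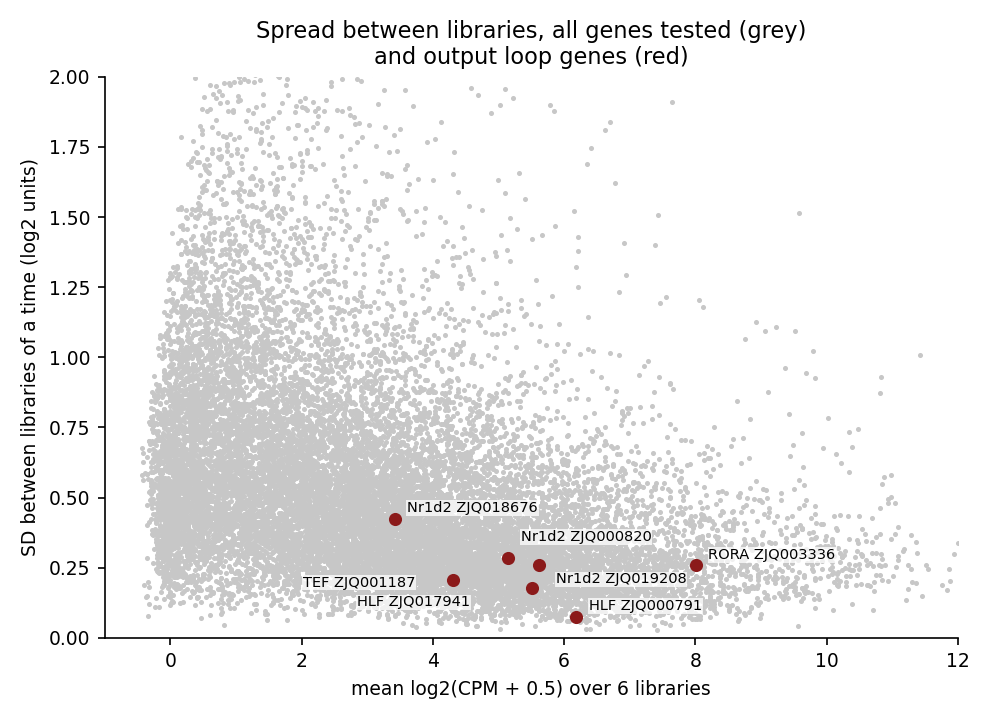
SD between libraries of a time (log2 units) against mean log2(CPM + 0.5) for the genes tested (grey) and the 7 members (red); 199 genes lie outside the axes. HLF ZJQ000791 lies at 0.08, near the lower edge of genes of its level.

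Across the 6 libraries 21 pairs of members were correlated, and 12 of the coefficients were negative. An exact permutation test gave 3 pairs an unadjusted p under 0.05 and none after adjustment over the 21 pairs, the lowest adjusted p being 0.292. The strongest was Nr1d2 ZJQ000820 with TEF, with Pearson's r = -0.89 (exact permutation p = 0.0222) and Spearman's rho = -0.89 (exact permutation p = 0.0333). Without the 2 libraries farthest from the median of Nr1d2 ZJQ000820 the r was -0.26. Leaving them out also narrows the range of values and leaves few libraries, so whether the relation rests on them was not tested. The other pairs, Nr1d2 ZJQ018676 and Nr1d2 ZJQ000820 each with HLF ZJQ000791, include genes whose libraries separate by time, and no pooled r is given for them.

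The core clock is the transcriptional loop that Rev-erb and ROR act on in mammals. A core clock list of 11 models, all tested, was chosen by name. It also holds a photolyase (PHR), cry-dash, Timeless and Tipin, whose part in that loop was not tested. Of the 11, edgeR called 0, with 3 at an unadjusted p under 0.05, beside 7.31% of all genes tested. These 3 were Bmal1, an lncRNA model named BMAL1 and CLOCK. DESeq2 called 1, the lncRNA model BMAL1 (lncRna04157). The median log2 fold change of the list was 0.58, with 8 values above 0 and 3 below, beside 0 over all genes. Bmal1 (ZJQ011976), a target of the mammalian loop, was at 17.5, 25.7 and 9.46 CPM at ZT12 and at 3.03, 8.07 and 2.58 CPM at ZT0, with no overlap and a log2 fold change of 1.92 (SE 0.54, edgeR adjusted p = 0.444). The lncRNA model BMAL1 had 2.04 (adjusted p = 0.42, edgeR), and CLOCK, the partner of BMAL1, had 0.83 (SE 0.33, adjusted p = 0.648, edgeR).

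Cryptochromes are repressors of the loop in mammals and light sensors in insects, and photolyases are their DNA-repair relatives. Among these, cry-dash had a log2 fold change of 0.96, cry (ZJQ010692) 0.63, PHR 0.08, Cry2 ZJQ009229 -0.11, CRY1 -0.38 and Cry2 ZJQ009245 -0.50. Timeless and its binding partner Tipin had 0.54 and 0.58. None of these 8 models passed edgeR's test. In CPM the times overlapped for each, while in the deposited FPKM Timeless and cry (ZJQ010692) had every ZT12 library above every ZT0 library. Summed Nr1d2 FPKM over Bmal1 FPKM was 2.3, 1.56 and 5.4 at ZT12 and 10.7, 4.63 and 13.3 at ZT0. It was 3.23-fold lower at ZT12, with ZT12 library 3 above ZT0 library 2 (log2 difference -1.69, two-sided exact permutation p = 0.2, adjusted p = 0.25).

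**Figure D5:**
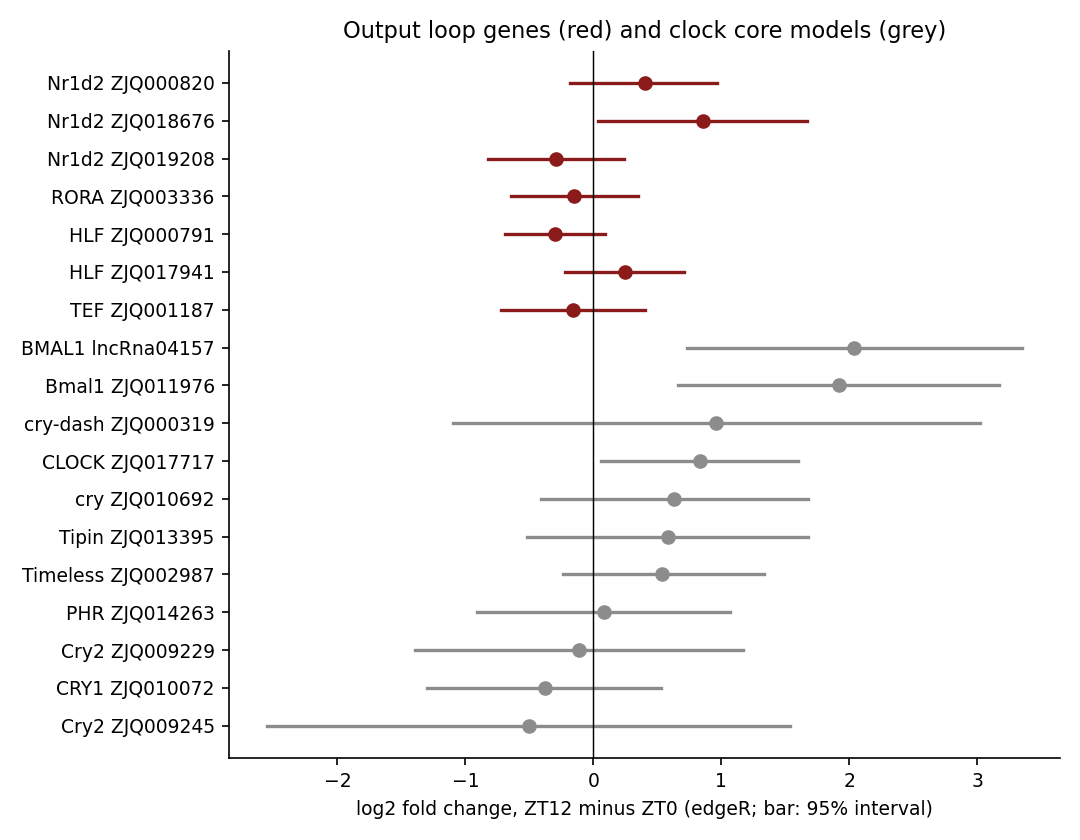
Fitted log2 fold changes (ZT12 minus ZT0, edgeR) with 95% intervals for the 7 members (red) and the 11 models of the core clock list (grey). The members lie between -0.30 and 0.86, and the largest value in the core clock list is 2.04.

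Cofactors and regulators of the loop, a list of clock kinases, ubiquitin ligases, corepressor subunits and heme synthesis genes, had 16 models, of which 15 were tested. Of these edgeR called 0, with 0 at an unadjusted p under 0.05 (7.31% of all genes tested). DESeq2 called 0, and the median log2 fold change was 0.06. Among the smallest p-values were those of TBL1XR1, a corepressor subunit (log2 fold change -0.35, edgeR adjusted p = 0.749), and alas2, an enzyme of heme synthesis (0.30, adjusted p = 0.818, edgeR). Of the other nuclear receptors 25 of 29 models were tested, with 0 called by edgeR or DESeq2, 1 at an unadjusted p under 0.05 and a median of 0.15. Their smallest p-values were those of Nr5a2 ZJQ008891 (0.99, edgeR adjusted p = 0.671), NR5A2 ZJQ009910 (-0.41, adjusted p = 0.717, edgeR) and ESRRG ZJQ002036 (-0.42, adjusted p = 0.79, edgeR). Of the other bZIP factors 16 of 17 were tested, with 0 called by edgeR or DESeq2, 1 at an unadjusted p under 0.05 and a median of 0. These were led by creb3l4 (-0.64, edgeR adjusted p = 0.641), Xbp1 (-0.36, adjusted p = 0.713, edgeR) and JUN (0.60, adjusted p = 0.742, edgeR).

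Close relatives of the members were chosen on their names. E75, the Drosophila counterpart of REV-ERB, named 4 models, which summed to 12.8, 12.4 and 15.3 FPKM at ZT12 and to 12.3, 16.4 and 14.4 FPKM at ZT0. None passed edgeR's test. The E75 model with the circadian pathway term, ZJQ024674, was at 1.43, 12.2 and 2.74 CPM at ZT12 and at 0.252, 8.71 and 0.0994 CPM at ZT0, highest in library 2 of each time (log2 fold change 0.76, edgeR adjusted p = 0.925). The most abundant, ZJQ019209, was at 34.6, 24.4 and 37.2 CPM at ZT12 and at 38.9, 37.4 and 47.5 CPM at ZT0, which do not overlap in CPM but do in FPKM (-0.36, edgeR adjusted p = 0.79). Hr3, the Drosophila counterpart of ROR, was at 11.9, 27.2 and 11.2 CPM at ZT12 and at 11.6, 15.9 and 11.6 CPM at ZT0, again highest in library 2 of each time (0.36, edgeR adjusted p = 0.898).

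Both remaining bZIP relatives were too low to test. The gene nfil3, which in mammals represses through the D-box that PAR factors activate, had 0, 53 and 3 counts at ZT12 and 0, 3 and 2 counts at ZT0. A further model named HLF, ZJQ002723, had 9 counts in all, 8 of them in ZT12 library 2. In a library with 0 counts, an expected level of up to 3 counts (0.123 to 0.151 CPM) could have been missed by counting error alone.

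The genes whose pattern over the 6 libraries was most like that of each member were taken from 11492 named genes of at least 1 CPM. With so many candidates and 6 libraries sharing depth and time, a high r is a description. For Nr1d2 ZJQ000820 they were Eif2ak3, an eIF2-alpha kinase (r = 0.990), and Tie1 (0.988). For Nr1d2 ZJQ018676 they were Sec14l1 (0.990) and CNOT1, the scaffold of the CCR4-NOT deadenylase (0.983), and for Nr1d2 ZJQ019208 PDLIM3 (0.990) and an lncRNA model named Gcn1 (0.985). RORA was most like GTF2E2, a subunit of general transcription factor IIE (0.990), and Akap9 (0.980). HLF ZJQ000791 was most like a gene described as upstream stimulatory factor (0.993) and trpa-1, an ion channel (0.993), and HLF ZJQ017941 like CHST15 (0.984) and ATP6V1D, a proton pump subunit (0.982). TEF was most like OGDH, an enzyme of the citric acid cycle (0.997), and Dynlrb2 (0.988). Between 11 and 39 candidates per member had an r over 0.95.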

How the data were processed

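RNA-seq of coelomocytes covered 3 libraries at ZT12 and 3 at ZT0, grouped by the time in the labels. The tools named per the submitters' processing notes are fastp, HISAT2 and HTSeq. Versions, genome build, annotation and strandedness were not given in the sources used here, so a gene and an overlapping antisense model cannot be told apart. Whether reads were shared or dropped between near-identical copies, such as the Nr1d2 or HLF models, was not checked.

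The authors deposited whole-number counts per gene, not normalized, and FPKM values per library. Of 109307 FPKM values with at least 10 counts, 100% equalled the counts over the library total and a single length per gene, within 0.1%. Both files therefore hold the same measurement.

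The deposited counts entered edgeR 4.0.16 under R 4.3.3 (filterByExpr, TMM scaling, glmQLFit with legacy = FALSE, glmQLFTest), with p-values adjusted by Benjamini-Hochberg over 18456 genes and a threshold of 0.05. All adjusted p-values of single genes come from this test where no other tool is named. Standard errors are the size of the log2 fold change over the square root of F. CPM use TMM-scaled library sizes, and the median log2 fold change of all genes is 0.12 with plain totals. Ratios within a library were log2(FPKM + 0.1), compared by an exact permutation test of 3 against 3 libraries. Correlations used log2(CPM + 0.5). DESeq2 1.42.0, limma 3.58.1 (voom and trend), other scalings, no filter, a replicate block and leaving out each library were tried as alternatives. The edgeR, limma-voom and DESeq2 fits were run on simulated counts with changes larger than those of the members. Their accuracy for changes of the members' size was not tested.

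The members and lists were chosen with earlier results of these data known. Named genes were the 7 members, every core clock gene, up to 3 genes of the smallest p and any called gene of the other lists, and for each member the 2 genes of highest r. Some results under this rule are not reported here. Relatives of the members were added on their names. Intervals and floors for counts cover counting error only.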

Additional observations from a re-analysis of the deposited data

How the results depend on the processing

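All 7 members kept their direction and stayed uncalled under all 14 alternatives. Their log2 fold changes ranged from 0.19 to 0.53 for Nr1d2 ZJQ000820, 0.58 to 1.12 for Nr1d2 ZJQ018676, -0.46 to -0.08 for Nr1d2 ZJQ019208, -0.36 to -0.01 for RORA, -0.34 to -0.17 for HLF ZJQ000791, 0.15 to 0.36 for HLF ZJQ017941 and -0.30 to -0.04 for TEF. The lowest adjusted p was 0.467, for Nr1d2 ZJQ018676 with DESeq2. Over 8 alternatives the log2 differences of the ratios ranged from 0.26 (CPM in place of FPKM) to 0.55 for Nr1d2 over RORA, 0.39 (without ZT0 library 1) to 0.97 for Nr1d2 ZJQ018676 over the other Nr1d2, -0.62 to -0.44 for the HLF models, -0.34 to -0.02 (without ZT12 library 3) for HLF and TEF over Nr1d2 and -2.2 to -1.3 for Nr1d2 over Bmal1. The number of genes called in the whole table, 24 by edgeR (3 higher and 21 lower at ZT12), was 264 with DESeq2 (133 higher and 131 lower), 10 with legacy = TRUE and 0 with limma-voom (1078 at an unadjusted p under 0.05). Leaving out each library in turn gave 0 to 21, with 0 when ZT12 library 1 was left out (1257 genes at an unadjusted p under 0.05) and 0 when ZT12 library 3 was (1357 genes). The cause was not tested. Same-numbered libraries did not deviate together over the genes tested (r of -0.06, 0.01 and -0.02). The labels do not say whether the numbers pair libraries, and these r cannot settle it. A fit with the replicate number as a block called 13 genes and none of the 7. Its log2 fold changes were 0.92 for Nr1d2 ZJQ018676 and -0.30 for HLF ZJQ000791. The members' counting errors were below their coefficients of variation at both times, except for Nr1d2 ZJQ019208 at ZT12 (3.17 against 2.7%). With 3 libraries per time an exact permutation test cannot go below 0.1.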
